A study of Homo sapiens with 12 samples.

Results

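Aminoacyl-tRNA synthetases were examined in sorafenib-resistant and parental liver cancer cells, as 38 genes chosen by symbol among the 27249 Ensembl genes of the tables (98711 genes in all). The members were 20 genes for cytosolic synthetases, 16 genes for mitochondrial synthetases, and AIMP1 and AIMP2, which encode non-catalytic scaffold proteins of the multi-synthetase complex. Each synthetase joins one amino acid to its tRNAs, and these charged tRNAs are the substrates of the ribosome. Mitochondria use a separate, nuclear-encoded set of synthetases, except that GARS and KARS serve both compartments from a single gene each and that mitochondrial glutaminyl-tRNA is made without a dedicated synthetase. When charging falls behind, uncharged tRNA activates the kinase GCN2, phosphorylation of eIF2α follows, and translation of the transcription factor ATF4 rises. ATF4 and its partners bind C/EBP-ATF response elements at genes for amino acid transport and synthesis and at several cytosolic synthetase genes.

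The study sequenced total RNA of Huh7 and HepG2, 2 cell lines that are described by the labels as hepatocellular carcinoma cells of WT genotype. Resistant Huh7 and resistant HepG2 cells had first received sorafenib, a kinase inhibitor used against liver cancer, at 10 μmol for a day, and survivors were carried through further rounds at rising doses over 8 months. Parental Huh7 and parental HepG2 cells, labelled sorafenib sensitive, were the controls. Each of the 4 groups held 3 samples. Neither the number of independently selected resistant populations nor separate cultures behind the replicates are given, so the p-values measure only the spread between these samples, which may be technical. Whether the resistant cells were in sorafenib at harvest is not given either, so the state of resistance and the presence of the drug cannot be told apart.

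The deposited values behave as reads divided by gene length and depth and are called FPKM here. Between 12290128 and 19285958 reads stood behind a sample. Of the 36 members that could be tested, each had 167 to 17246 reads in a sample. Hepatocyte markers were abundant in all 12 samples (ALB 571 to 2137 FPKM), and no listed marker of another cell type exceeded 3.61 FPKM (PECAM1). Fold changes below are on the log2(FPKM + 1) scale, which understates the change of genes with low values. A gene passed where the Benjamini-Hochberg adjusted p of limma's two-sided test, over all genes tested in the comparison, was under 0.05. In RNA of whole cultures, fewer cells that express a gene and less RNA per cell cannot be told apart.

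The cytosolic enzymes were more abundant in sum than the mitochondrial ones in every sample. Their summed level was 839.6 ± 7.8 FPKM (SD, n = 3) in resistant Huh7, 682.6 ± 22.2 in parental Huh7, 800.0 ± 39.4 in resistant HepG2 and 1155.6 ± 103.1 in parental HepG2. The resistant samples thus lay above the parental samples in Huh7 and below them in HepG2, with no overlap in either line. The mitochondrial sum was 207.5 ± 10.3, 172.1 ± 7.9, 221.1 ± 6.9 and 207.6 ± 18.4 FPKM in the same order, and its groups overlapped in HepG2 only.

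GARS (glycine), IARS (isoleucine), AARS (alanine) and KARS (lysine) led the cytosolic enzymes in parental Huh7, at 57.9 to 92.0 FPKM. RARS at 57.5 ± 1.85 FPKM and EPRS at 52.9 ± 8.7 FPKM followed, and their values overlapped those of KARS (57.9 ± 4.7 FPKM). In parental HepG2 the first place was held by GARS at 209 ± 24 FPKM. IARS at 113 ± 20 FPKM, SARS (serine) at 107 ± 16 FPKM and AARS at 96.4 ± 16.3 FPKM followed, and the values of these 3 genes overlapped. HARS (histidine) and CARS (cysteine) were the lowest in all 4 groups, at 3.28 to 7.56 FPKM. Levels of different genes are per base of all annotated exons, 1838 to 10460 bases a member, so genes with long exons that the cells do not use read low.

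IARS2 led the mitochondrial enzymes in every group, at 54.2 to 66.9 FPKM. PARS2 (proline) had no more than 3 reads in any sample, the floor used here. SARS2 had 0.257 to 1.29 FPKM, and 46.2% of its exon bases are shared with an annotated read-through gene. Neither PARS2 nor SARS2 reached 1 FPKM in 3 samples of a line, and both were left untested.

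**Figure D1:**
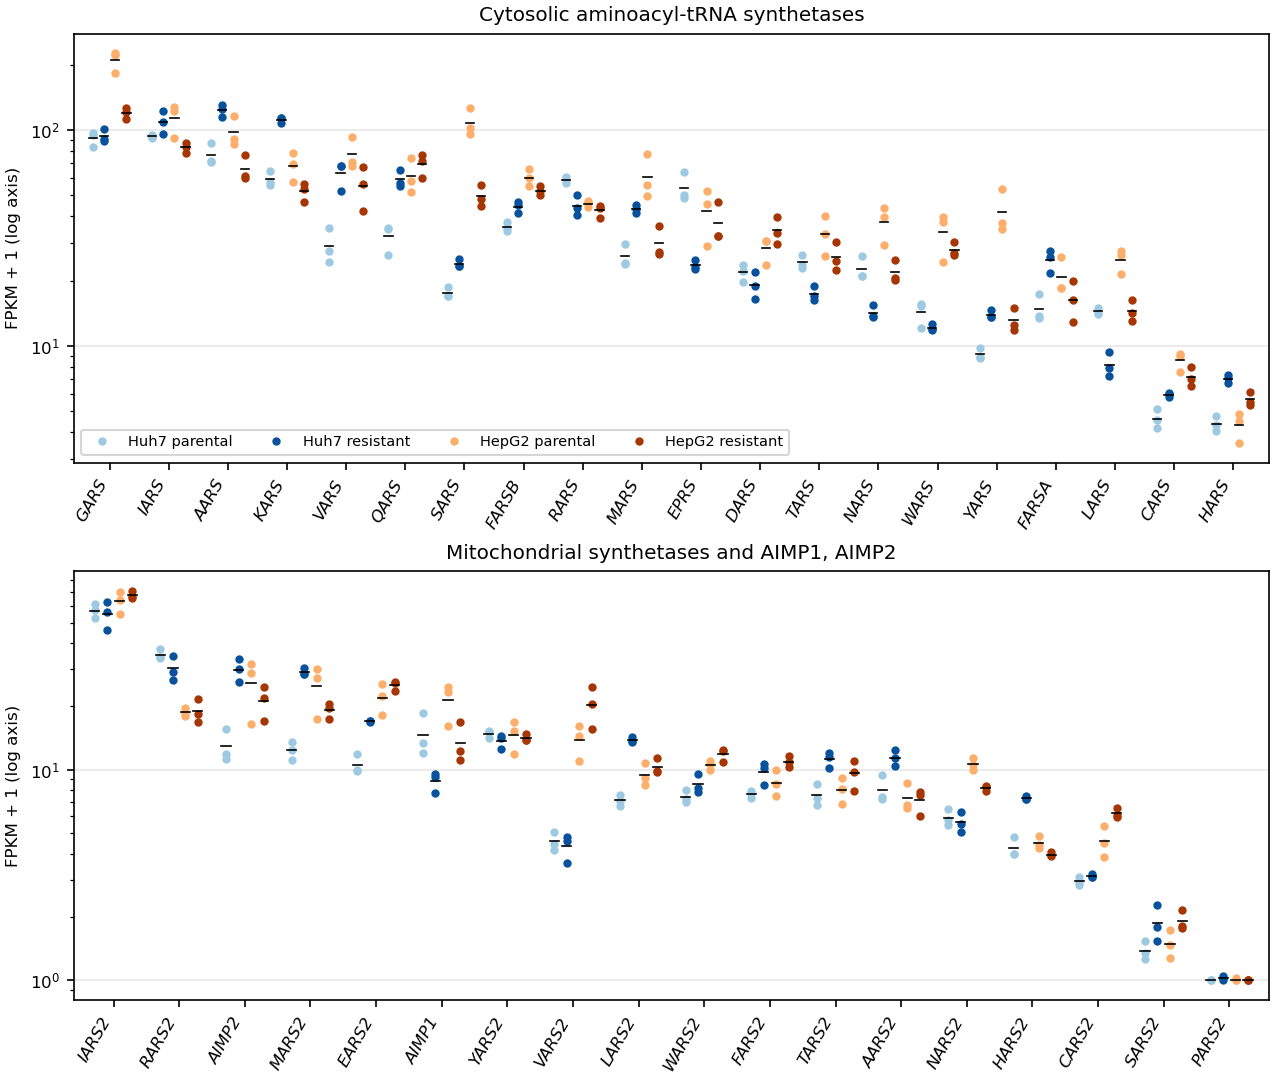
FPKM + 1 of each member (log axis) in 3 samples per group, with the cytosolic enzymes above and the mitochondrial enzymes with AIMP1 and AIMP2 below; points are samples and bars are group means of FPKM + 1. GARS in parental HepG2 is the highest member, with a mean of 209 FPKM, and PARS2 is at or near 0 in every sample.

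In resistant HepG2 cells, 6 cytosolic synthetases fell and none of the 20 passed as higher, against 8.43% of all 11762 genes tested that passed as lower and 11.6% as higher. YARS, SARS, MARS, GARS, LARS and NARS, which charge tyrosine, serine, methionine, glycine, leucine and asparagine tRNAs, were the 6. At an unadjusted p under 0.05, 10 cytosolic genes were lower and 1, HARS, was higher, and limma-voom on reads calculated back gave 7 lower and 0 higher. The median difference over the 20 genes was -0.37 log2, against 0.12 over all genes, and 17 of the 20 had a negative value. The 3 others were HARS (0.41), DARS (0.27) and QARS (0.19), none of which passed.

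YARS, on chromosome 1 (chr1:32775237-32818153, GRCh38, minus strand), measured 10.8, 14.0 and 11.5 FPKM in resistant HepG2 and 33.5, 52.3 and 36.0 FPKM in parental HepG2. All resistant samples lay below all parental samples. This difference of -1.65 ± 0.19 log2 (SE, adjusted p = 0.00141, limma), a fold of 0.32 on the FPKM + 1 scale, was the most negative among the members in this line.

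SARS (chr1:109213918-109238169, plus strand) measured 46.7, 54.3 and 43.2 FPKM in resistant HepG2 and 101, 125 and 94.5 FPKM in parental HepG2. The groups did not overlap. The difference was -1.13 ± 0.16 log2 (adjusted p = 0.00297, limma).

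MARS (chr12:57475445-57517569, plus strand), which also charges the initiator methionine tRNA, measured 25.5, 34.8 and 26.0 FPKM against 48.4, 75.8 and 54.6 FPKM. Resistant replicate 2 and parental replicate 2 were each the highest of their group, and the groups did not overlap. The difference was -1.01 ± 0.20 log2 (adjusted p = 0.0117, limma). MARS shares 5.1% of its exon bases with DDIT3 on the other strand, an ATF4 target that measured 6.99 FPKM on average in resistant and 5.68 in parental HepG2. YARS, SARS and MARS were the members past a log2 difference of 1, as were 2.98% of all genes on the lower side and 3.29% on the higher side.

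GARS, in which mutations cause an inherited peripheral neuropathy, measured 119, 124 and 111 FPKM in resistant HepG2 and 182, 225 and 222 FPKM in parental HepG2 (difference -0.82 ± 0.15 log2, adjusted p = 0.0076, limma). LARS, which is also a leucine sensor of the mTORC1 pathway, measured 15.3, 11.9 and 13.1 FPKM against 26.5, 20.4 and 25.2 FPKM (-0.79 ± 0.16, adjusted p = 0.0116). NARS measured 23.9, 19.6 and 19.2 FPKM against 38.3, 28.1 and 42.5 FPKM (-0.76 ± 0.18, adjusted p = 0.0234). In each of these 3 genes every resistant sample was below every parental sample.

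Another 4 cytosolic genes were lower without overlap and did not pass. AARS was at -0.56 ± 0.17 log2 (adjusted p = 0.052, limma), VARS at -0.50 ± 0.21, IARS at -0.44 ± 0.16 and KARS at -0.39 ± 0.16. With these, 10 of 20 cytosolic genes were lower without overlap, as were 15.5% of all genes, and 1 of 20 (HARS) was higher without overlap, as were 24.9%.

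Of the 6 calls in HepG2, 4 depended on single libraries. Without resistant replicate 3, only YARS (adjusted p = 0.00692, limma) and SARS (0.0209) passed, while MARS (0.0541), GARS (0.0551), LARS (0.0616) and NARS (0.102) did not. Calls over all genes fell as well without that sample, to 447 higher and 457 lower from 1366 and 991. NARS was also lost without resistant replicate 2 (0.0682), parental replicate 1 (0.0775) or parental replicate 3 (0.0587), and all differences stayed negative. The balance of all genes in this line depends on the scaling: 1366 genes passed as higher and 991 as lower here, 992 and 1286 after median-ratio scaling, and 1085 and 1201 after upper-quartile scaling, under which 8 and 7 cytosolic synthetases passed as lower.

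None of the 14 mitochondrial synthetases tested in HepG2 passed with limma in either direction. Of all genes, 8.43% passed as lower and 11.6% as higher. At an unadjusted p under 0.05, CARS2 (0.46 ± 0.16 log2), VARS2 (0.54 ± 0.21) and FARS2 (0.35 ± 0.15) were higher and NARS2 (-0.37 ± 0.13) was lower; with limma-voom on reads calculated back, 2 passed as higher and 0 as lower. The median over the 14 genes was 0.12 log2, the same as over all genes. VARS2 shares 22.0% of its exon bases with its neighbour GTF2H4. AIMP1 (-0.68 ± 0.22, adjusted p = 0.0631) and AIMP2 (-0.24 ± 0.26, adjusted p = 0.545) did not pass, and AIMP1 overlapped between the groups. AIMP1 passed as lower in 8 of 15 alternatives, both scalings and limma-voom among them, with differences of -0.87 to -0.55 log2 over all 15.

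**Figure D2:**
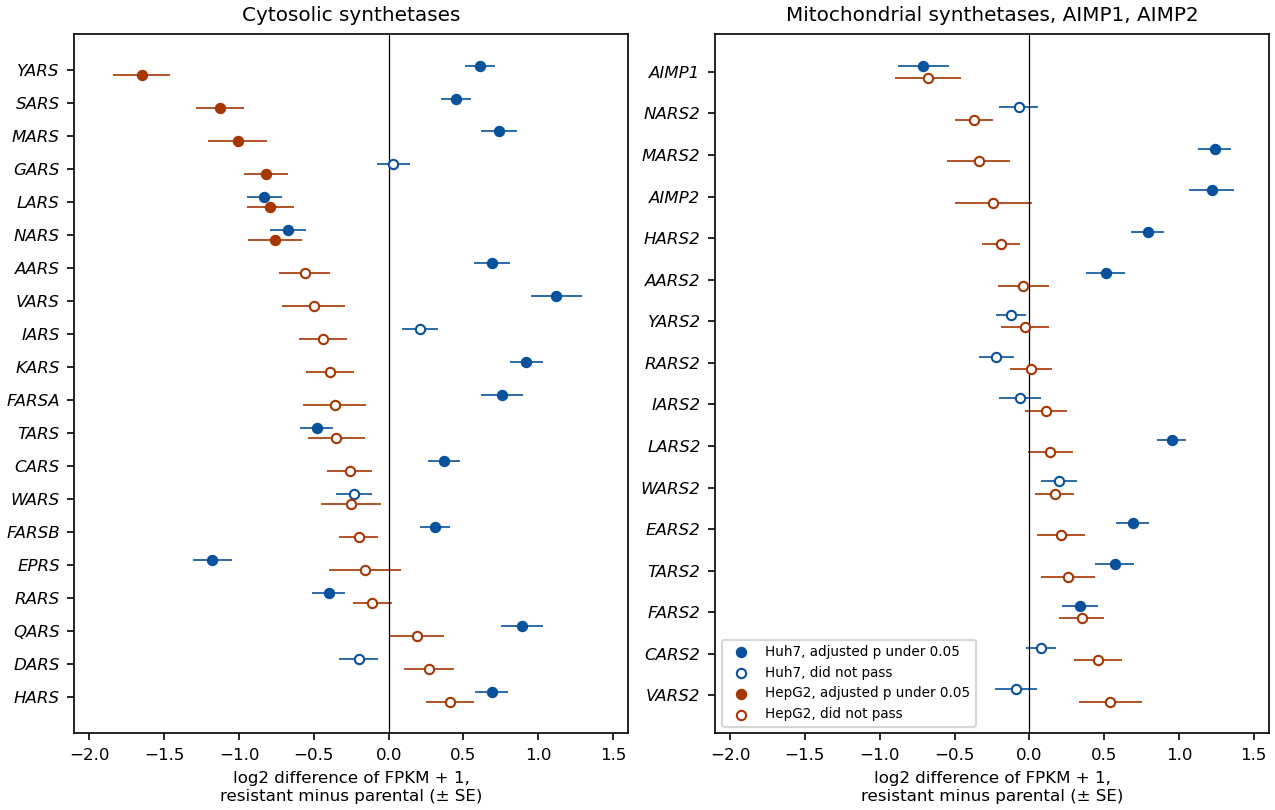
Difference between resistant and parental cells on the log2(FPKM + 1) scale for each of the 36 members tested, in Huh7 (blue) and HepG2 (red); bars are the SE and filled points passed at an adjusted p under 0.05. Among the cytosolic enzymes the filled HepG2 points are all negative, from -1.65 (YARS) to -0.76 (NARS), while Huh7 has filled points on both sides. Of the filled Huh7 points in both panels, those of CARS, RARS, AARS2, FARS2 and AIMP1 change sign once the GC trend of the libraries is removed.

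In resistant Huh7 cells, 11 cytosolic synthetases rose, 5 fell and 4 did not pass, where 32.7% of all 12554 genes passed as higher and 37.4% as lower. The genes that rose were VARS, KARS, QARS, FARSA, MARS, AARS, HARS, YARS, SARS, CARS and FARSB, by 1.12 to 0.31 log2. EPRS, LARS, NARS, TARS and RARS fell. The median was 0.34 log2, against -0.04 over all genes. Without overlap of the groups, 12 were higher and 5 lower, as were 35.2% and 39.2% of all genes. DARS (-0.20), WARS (-0.23), IARS (0.21) and GARS (0.03) did not pass, and GARS measured 92.3 ± 6.6 FPKM in resistant and 90.5 ± 7.0 FPKM in parental Huh7.

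VARS (chr6:31777518-31795953, minus strand), the valine enzyme, measured 67.2, 51.0 and 67.0 FPKM in resistant Huh7 and 34.2, 26.3 and 23.5 FPKM in parental Huh7. All resistant samples were above all parental samples, by 1.12 ± 0.17 log2 (adjusted p = 0.000469, limma). EPRS (chr1:219968601-220046658, minus strand), a single protein that charges both glutamate and proline tRNAs, measured 21.7, 23.9 and 22.2 FPKM against 47.1, 48.8 and 62.9 FPKM. This was the most negative difference of the members in Huh7, at -1.18 ± 0.13 log2 (adjusted p = 0.000117), again without overlap. VARS and EPRS were the cytosolic enzymes past a log2 difference of 1, which 8.59% of all genes passed on the higher and 14.0% on the lower side.

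KARS measured 106, 113 and 112 FPKM in resistant Huh7 and 63.2, 56.1 and 54.3 FPKM in parental Huh7 (0.92 ± 0.11 log2, adjusted p = 0.00014, limma). AARS measured 130, 113 and 124 FPKM against 85.7, 69.8 and 70.4 FPKM (0.69 ± 0.12, adjusted p = 0.00111). FARSA, the α subunit of the phenylalanine enzyme, measured 26.5, 20.8 and 24.8 FPKM against 16.3, 12.7 and 12.5 FPKM (0.76 ± 0.14, adjusted p = 0.00142). None of the 3 genes overlapped between the groups. The β subunit gene FARSB rose less, by 0.31 ± 0.10 log2 (adjusted p = 0.0231), and its call was lost without resistant replicate 2 (0.0532), resistant replicate 3 (0.102) or parental replicate 3 (0.0565).

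The 3 genes that fell most in HepG2 rose in Huh7. YARS measured 13.5, 12.6 and 12.6 FPKM in resistant and 8.79, 7.76 and 7.85 FPKM in parental Huh7 (0.61 ± 0.10 log2, adjusted p = 0.000803, limma). SARS measured 24.3, 22.3 and 22.4 FPKM against 17.6, 16.0 and 16.0 FPKM (0.45 ± 0.10, adjusted p = 0.00327). MARS measured 43.9, 39.99 and 42.0 FPKM against 28.6, 22.9 and 23.2 FPKM (0.74 ± 0.12, adjusted p = 0.000621). The resistant samples were the higher ones throughout. In contrast, LARS (-0.83 ± 0.12) and NARS (-0.67 ± 0.12) fell in Huh7 as they did in HepG2, and they were the 2 members that passed in the same direction in both lines.

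Of the 14 mitochondrial synthetases tested in Huh7, 7 rose and none passed as lower, where 32.7% and 37.4% of all genes passed. The count as lower was also 0 at an unadjusted p under 0.05 and with limma-voom. MARS2, LARS2, HARS2, EARS2, TARS2, AARS2 and FARS2 rose, by 1.24 to 0.34 log2, and the median over the 14 genes was 0.27. With the GC trend removed, 8 mitochondrial genes passed as higher. AARS2, FARS2 and TARS2 were lost, and IARS2 (0.45), NARS2 (0.40), RARS2 (0.38) and WARS2 (0.52) were gained. CARS2 (-0.42), VARS2 (-0.64) and YARS2 (-0.27) then passed as lower. MARS2 (chr2:197705369-197708387, plus strand), a gene with a single exon, measured 27.7, 27.6 and 29.4 FPKM in resistant and 12.6, 11.5 and 10.2 FPKM in parental Huh7. The difference was 1.24 ± 0.11 log2 (adjusted p = 4.75e-05, limma), the largest rise among the members. LARS2 measured 13.3, 12.7 and 12.5 FPKM against 6.62, 6.08 and 5.76 FPKM (0.95 ± 0.10, adjusted p = 9.5e-05), and EARS2 measured 16.0, 16.0 and 15.9 FPKM against 10.8, 8.93 and 8.86 FPKM (0.69 ± 0.11, adjusted p = 0.000598). In all 3 genes the resistant samples lay clear above the parental ones.

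The scaffold genes moved apart. AIMP2 (chr7:6009245-6023834, plus strand) measured 29.1, 25.1 and 32.6 FPKM in resistant and 14.6, 10.9 and 10.3 FPKM in parental Huh7, a rise of 1.22 ± 0.15 log2 (adjusted p = 0.000209, limma). Its exons share 28.9% of their bases with EIF2AK1 on the other strand, which measured 53.1 FPKM in resistant and 51.6 in parental Huh7 (0.04 ± 0.10). AIMP1 measured 8.20, 8.60 and 6.80 FPKM against 11.1, 12.4 and 17.5 FPKM (-0.71 ± 0.17, adjusted p = 0.00581), and this sign turns once the GC trend is removed (0.20). Neither gene overlapped between the groups. Among the 10 listed genes of the multi-synthetase complex, 4 rose (QARS, MARS, KARS, AIMP2) and 4 fell (EPRS, LARS, RARS, AIMP1) in Huh7, where 32.7% and 37.4% of all genes passed, with a median of 0.01 log2. RARS and AIMP1 turn sign with the GC trend removed. In HepG2, 2 of the 10 fell (MARS, LARS) and 0 rose, where 8.43% and 11.6% of all genes passed.

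**Figure D3:**
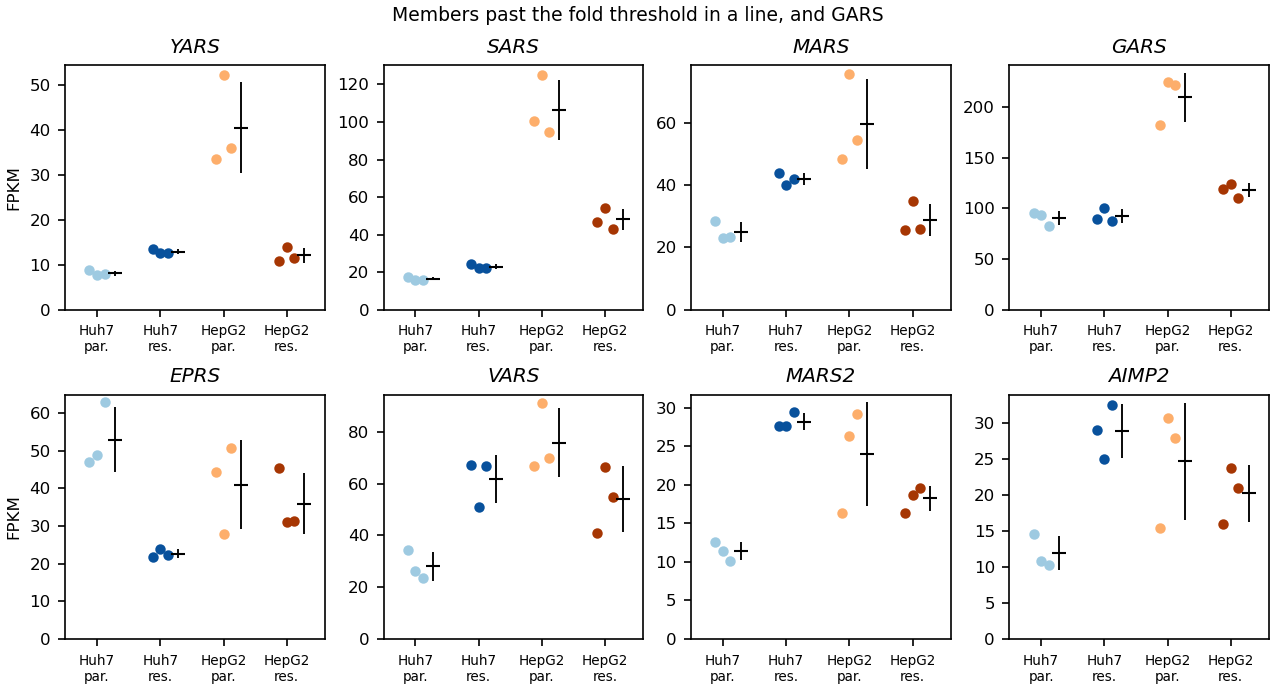
FPKM in each sample (points), with the mean and SD of the group beside them, for the 7 members past a log2 difference of 1 in a line and for GARS. YARS, SARS and MARS lie lower in resistant (res.) than in parental (par.) HepG2 and higher in resistant than in parental Huh7, while EPRS falls in Huh7 from a mean of 52.9 to 22.6 FPKM.

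The differences in Huh7 went with base composition. Across the 12545 tested genes with an annotation, genes of higher GC content had higher values in resistant Huh7 (Spearman's rho 0.63, a description over genes of the same libraries), and the 36 members showed the same (0.62). In HepG2 rho was 0.03 over genes and 0.19 over members. Replicates of one group also differed along this axis, with a rho between GC content and the deviation from the other samples of the group of -0.76 to 0.74, the extremes being HepG2 resistant replicates 1 and 2. When the GC trend of each library was removed, the medians in Huh7 were 0.28 log2 for the cytosolic and 0.31 for the mitochondrial enzymes. MARS2 (1.16), FARSB (0.90), AIMP2 (0.87), VARS (0.59), LARS (-0.22), NARS (-0.38) and EPRS (-0.67) kept their direction and passed. So did QARS (0.41), HARS (0.38), MARS (0.34), AARS (0.30), FARSA (0.24), EARS2 (0.23) and SARS (0.21), with rises smaller by over 1.5 times than before. The differences of VARS, LARS, NARS and EPRS shrank as well, from 1.12, -0.83, -0.67 and -1.18 log2, while that of FARSB grew from 0.31. Among the cytosolic enzymes, DARS (0.50, from -0.20) and IARS (0.64) newly passed as higher and WARS (-0.41) as lower. Among the genes that had passed before, the signs of CARS (-0.01), AARS2 (-0.04), FARS2 (-0.03), AIMP1 (0.20) and RARS (0.26) turned. Only RARS passed in the new direction (adjusted p = 0.012, limma), and TARS (adjusted p = 0.0755) and TARS2 (0.109) no longer passed.

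Of these, CARS, FARS2 and RARS also rested on single libraries. CARS did not pass without resistant replicate 1 (adjusted p = 0.0562, limma) or 3 (0.0605) or parental replicate 2 (0.0567) or 3 (0.0503). FARS2 did not pass without the same libraries (0.113, 0.116, 0.107 and 0.0536). RARS did not pass without resistant replicate 3 (0.0525). The other Huh7 calls passed whichever library was left out, apart from FARSB.

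**Figure D4:**
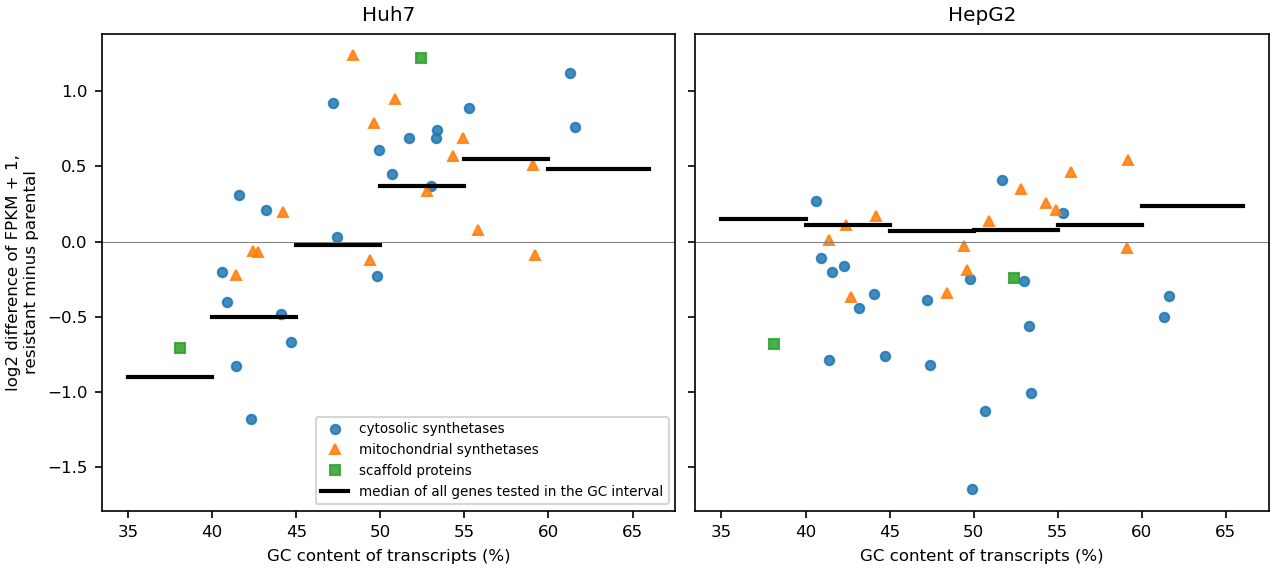
Difference between resistant and parental cells (log2 of FPKM + 1) against the GC content of the transcripts (%) for the 36 members tested in Huh7 (left) and HepG2 (right); black bars are the medians of all genes tested within GC intervals. In Huh7 the medians climb from -0.90 below 40% GC to 0.55 between 55 and 60% GC and the members climb with them, whereas the HepG2 medians stay between 0.07 and 0.24.

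The resistant-minus-parental change differed between the lines for 19 of the 36 members tested, and for 56.3% of all genes, by the interaction of cell line and resistance over all 12 samples. Of the 20 cytosolic genes, 12 had a more positive change in Huh7 and 1, EPRS, a more negative one, where 23.1% and 33.2% of 13800 genes passed in these directions. YARS differed most, by 2.25 ± 0.22 log2 (adjusted p = 1.58e-05, limma), from a rise in Huh7 to a fall in HepG2. MARS (1.75 ± 0.24, adjusted p = 0.000151), VARS (1.61 ± 0.28, 0.000709), SARS (1.58 ± 0.17, 3.42e-05), KARS (1.30 ± 0.18, 0.000133), AARS (1.26 ± 0.21, 0.00044) and FARSA (1.12 ± 0.26, 0.00386) differed by more than 1 log2 in the same direction. LARS (-0.04 ± 0.19) and NARS (0.09 ± 0.22) did not pass. With the GC trend removed, LARS passed with a more positive change in Huh7 (0.64, adjusted p = 0.000317, limma). EPRS (-1.02 ± 0.30, adjusted p = 0.0136) no longer passed with the GC trend removed (0.103).

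Of the mitochondrial genes, 5 of 14 passed, all with a more positive change in Huh7, where 23.1% of all genes passed in that direction and 33.2% in the other. MARS2 (1.58 ± 0.25, adjusted p = 0.000368, limma), HARS2 (0.98 ± 0.14, 0.000225) and LARS2 (0.82 ± 0.16, 0.00114) passed, and AARS2 (0.55, 0.0484) and EARS2 (0.48, 0.037) were close to the threshold. AIMP2 also passed (1.45 ± 0.34, adjusted p = 0.00364). The median of all genes in this comparison was -0.15 log2 and moved to -0.03 after median-ratio scaling, against medians of 0.64 for the cytosolic and 0.16 for the mitochondrial enzymes.

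The parental lines themselves differed, and this comparison shares its samples with the comparisons within each line. In parental Huh7, 12 cytosolic synthetases were lower than in parental HepG2 and 1 (RARS) was higher, where 26.2% of 12796 genes passed as lower and 39.0% as higher. SARS was lower by 2.61 log2 (adjusted p = 2.08e-06, limma), at 16.5 ± 0.9 against 107 ± 16 FPKM. YARS was lower by 2.16 log2 (adjusted p = 1.82e-05), at 8.13 ± 0.57 against 40.6 ± 10.2 FPKM. In resistant cells the means of YARS were 12.9 FPKM in Huh7 and 12.1 FPKM in HepG2, while SARS measured 23.0 and 48.1 FPKM. RARS (0.36 log2, adjusted p = 0.0244) did not pass after median-ratio or upper-quartile scaling and turned sign with the GC trend removed (-0.16), and it did not pass without parental Huh7 replicate 2 or 3. The median over all genes was 0.19 log2 and 0.05 after median-ratio scaling, against -0.73 for the cytosolic enzymes.

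Among the mitochondrial enzymes, 7 of 14 were lower in parental Huh7 than in parental HepG2 and 1, RARS2, was higher (34.2 ± 2.0 against 17.8 ± 0.8 FPKM, 0.91 ± 0.12 log2, adjusted p = 0.000257, limma). Of all genes, 26.2% passed as lower and 39.0% as higher. LARS2, 1 of the 7, passed in only 1 of the 6 fits that left out a sample. VARS2 was lower by 1.59 log2 (adjusted p = 8.72e-05), at 3.58 ± 0.47 against 12.9 ± 2.6 FPKM. EARS2 was lower by 1.05 log2 (adjusted p = 0.000598).

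The cytosolic and the mitochondrial enzyme of one amino acid were also set side by side, with no test within pairs. Of 13 pairs with both genes tested, the cytosolic gene had the lower difference in 12 in HepG2, all but HARS and HARS2, and in 8 in Huh7. In Huh7 both genes rose for alanine, histidine and methionine, and the cytosolic gene fell while the mitochondrial one rose in EPRS and EARS2, LARS and LARS2, and TARS and TARS2. LARS measured 6.21, 8.35 and 6.86 FPKM in resistant and 13.0, 13.3 and 13.9 FPKM in parental cells, whereas LARS2 rose. EPRS and EARS2 were at -1.18 and 0.69 log2, and with the GC trend removed at -0.67 and 0.23, while LARS and LARS2 were then at -0.22 and 0.69. With the trend removed, neither TARS (-0.14, adjusted p = 0.0755, limma) nor TARS2 (0.13, 0.109) passed. AARS2, counted above as rising with AARS, then turned sign (-0.04). MARS rose by 0.74 and MARS2 by 1.24 log2 in Huh7, and in HepG2 MARS fell while MARS2 (-0.34 ± 0.21, adjusted p = 0.286, limma) did not pass.

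HARS and HARS2 lie head to head on chromosome 5, where their exons overlap over 437 bases (chr5:140691426-140691862). HARS measured 6.29, 5.73 and 6.06 FPKM in resistant and 3.72, 3.31 and 3.04 FPKM in parental Huh7 (0.69 ± 0.11 log2, adjusted p = 0.000584, limma). HARS2 measured 6.28, 6.29 and 6.48 FPKM against 3.82, 3.00 and 2.96 FPKM (0.79 ± 0.11, adjusted p = 0.000404). Both rose in Huh7 without overlap of the groups. In HepG2, HARS measured 4.51, 5.10 and 4.33 FPKM in resistant and 2.54, 3.83 and 3.47 FPKM in parental cells, and HARS2 measured 2.89, 3.06 and 2.92 FPKM against 3.40, 3.85 and 3.27 FPKM. HARS was thus the higher and HARS2 the lower of the pair in resistant HepG2, without passing (adjusted p = 0.108 and 0.348). The sources used here do not say that the libraries kept the strand, so reads of the overlap cannot be told apart.

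Synthetases are divided by the fold of their catalytic domain into class I and class II. In Huh7, 8 of the 19 class I genes rose and 3 fell, and of the 15 class II genes tested 10 rose and 2 fell, where 32.7% and 37.4% of all genes passed; the classes were not tested against each other. In HepG2, 3 genes of each class fell and 0 passed as higher, where 8.43% and 11.6% of all genes passed. At an unadjusted p under 0.05, 5 class I and 6 class II genes were lower, and 2 of each class were higher.

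The promoters of the members were searched for the C/EBP-ATF response element, as its letters TGATGNAA on either strand within 250 bases before and 50 bases after the RefSeq start site (GRCh38.p14). Of the 38 members, 32 had a promoter in the RefSeq table, and those of DARS, LARS, VARS, YARS, AARS2 and VARS2 were not searched. The letters were present in 6 of 16 cytosolic promoters (37.5%), in 1 of 14 mitochondrial promoters (YARS2) and in 3.67% of all 27305 promoters. In the 6 cytosolic genes the match was the same 8 letters, TGATGCAA or their reverse complement TTGCATCA, which 0.923% of all promoters hold, a motif chosen after the matches were seen. Their stretches are shown, 5′ to 3′ on the strand of the gene, because they carry this shared element, which the capitals mark:
AARS (chr16:70289646-70289733, minus strand): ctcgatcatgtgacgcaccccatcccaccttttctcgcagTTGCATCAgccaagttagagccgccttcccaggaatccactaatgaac
CARS (chr11:3057418-3057465, minus strand): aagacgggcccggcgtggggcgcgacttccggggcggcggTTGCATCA
IARS (chr9:92293698-92293750, minus strand): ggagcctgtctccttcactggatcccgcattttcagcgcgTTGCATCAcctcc
MARS (chr12:57488024-57488071, plus strand): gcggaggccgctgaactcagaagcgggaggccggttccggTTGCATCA
NARS (chr18:57621815-57621862, minus strand): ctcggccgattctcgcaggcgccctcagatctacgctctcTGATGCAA
TARS (chr5:33440927-33440974, plus strand): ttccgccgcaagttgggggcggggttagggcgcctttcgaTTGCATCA

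The element begins 187 bases before the start site in AARS and 13 bases before it in IARS, and lies at the start site or just after it in the other 4. All 6 genes had a negative difference in resistant HepG2, from -1.01 (MARS) to -0.26 log2 (CARS) with a median of -0.50, and 2 of them, MARS and NARS, passed as lower. Of the 10 cytosolic genes with a promoter but no match, 8 had a negative difference, the median was -0.22 log2, and 2, SARS and GARS, passed as lower. In Huh7 the 6 genes ranged from -0.67 (NARS) to 0.74 log2 (MARS). The E-box CACGTG was present in 1 cytosolic and 3 mitochondrial promoters (7.43% of all promoters). A match describes letters in this window only.

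ATF4 and its listed targets, none of them a synthetase, mostly fell in resistant HepG2. Of 28 genes tested, 17 fell and 2 rose, where 8.43% and 11.6% of all genes passed, and the median was -0.73 log2, against 0.12 over all genes. ATF4 itself averaged 246 FPKM in resistant and 387 FPKM in parental HepG2 (-0.65 ± 0.14, adjusted p = 0.0154, limma). CTH, which makes cysteine from cystathionine, fell by 2.62 log2 (adjusted p = 6.34e-05), PPP1R15A, the phosphatase subunit that reverses eIF2α phosphorylation, by 1.96 (0.000211), and SLC7A11, the cystine carrier, by 1.84 (0.00193). DDIT3 did not pass (0.28 ± 0.20, adjusted p = 0.341).

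In Huh7, 11 of 25 genes of this list rose and 4 fell, against 32.7% and 37.4% of all genes, and ATF4 was at 0.28 ± 0.12 log2 (adjusted p = 0.0671, limma). SLC1A5, a glutamine carrier, rose by 1.78 log2 (adjusted p = 5.33e-05) and STC2, a secreted glycoprotein, by 1.49 (4.88e-05), while SLC7A11 fell by 1.15 (0.000295). In the interaction 17 of 29 genes had a more positive change in Huh7 and 2 a more negative one, against 23.1% and 33.2% of all genes, and ATF4 differed by 0.93 log2 (adjusted p = 0.000592).

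Of the 5 genes for the eIF2α kinases and the GCN2 cofactor, 3 rose in HepG2 and 0 fell, at the adjusted and the unadjusted threshold alike. At the adjusted threshold 11.6% of all genes passed as higher and 8.43% as lower. The 3 genes were EIF2AK4, which encodes GCN2 (0.83 ± 0.13 log2, adjusted p = 0.00445, limma), EIF2AK3, which encodes PERK (0.89 ± 0.20, 0.0195), and EIF2AK1, which encodes HRI (0.61 ± 0.15, 0.0239). In Huh7, EIF2AK4 (0.43 ± 0.10) and the cofactor gene GCN1 (0.63 ± 0.13) rose, and EIF2AK3 (-0.53 ± 0.11) and EIF2AK2, which encodes PKR (-0.44 ± 0.11), fell. These counts of 2 and 2 among 5 genes lie near the 32.7% and 37.4% of all genes.

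The genes that act beside the synthetases were also counted, and their Huh7 shares stand against 32.7% of all genes higher and 37.4% lower. In HepG2 the shares of all genes were 11.6% and 8.43%. Of 7 genes tested in Huh7 from a list of cytosolic elongation factors, 6 rose and 1 fell. EEF1A2, an elongation factor isoform, rose by 1.77 ± 0.15 log2 (adjusted p = 4.07e-05, limma), EEF1B2, an exchange factor subunit, by 1.16 ± 0.12 (8.07e-05) and EEF2K, the kinase of elongation factor 2, by 0.91 ± 0.11 (0.000196). EEF1E1, which fell (-0.32 ± 0.11, adjusted p = 0.0331), encodes AIMP3, a further scaffold protein of the multi-synthetase complex that is not among the 38 members. In HepG2, 0 of 6 passed, and 1 was lower at an unadjusted p under 0.05. Of 18 genes for mitochondrial tRNA modification and elongation, 6 rose and 4 fell in Huh7, with a median of -0.03 log2 against -0.04 over all genes, among them the elongation factor gene TUFM (0.94 ± 0.21) and the initiation factor genes MTIF2 (-0.82 ± 0.13) and MTIF3 (-0.76 ± 0.12), and 0 passed in HepG2, where 2 were higher at an unadjusted p under 0.05. Of the genes for tRNA transcription, processing and export, 16 of 33 rose and 10 fell in Huh7, led by POLR3K (1.27 ± 0.13) and TSEN34 (1.10 ± 0.16) on the higher side and BDP1 (-1.13 ± 0.20) on the lower. In HepG2, 5 of 34 rose, against 11.6% of all genes, POP5 (0.83 ± 0.20) and POP7 (0.80 ± 0.22) among them, and 1 fell, POLR3D (-0.76 ± 0.16).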

How the data were processed

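RNA of 12 samples in 4 groups was analysed, with groups and replicate numbers from the sample labels. Per the labels, NEBNext Ultra libraries were sequenced, and the submitters' processing notes name bcl2fastq and GRCh38; the labels and the paper's methods name different RNA extraction kits. The aligner and the counting tool are not given in the sources used here. The unit of the deposited values is not stated. Multiplied by exon length, 96.4% of the values of up to 2000 reads fall within 0.05 of whole reads, so the authors' values are taken as deposited FPKM (RPKM cannot be told apart from it). Values were used without rescaling.

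Exon lengths, positions, overlaps and GC content came from GENCODE release 29, which places 37 of 38 members where the tables do (not FARS2), and promoters from RefSeq (GRCh38.p14). limma 3.58.1 in R 4.3.3 was fitted to log2(FPKM + 1), with a variance trend and a two-sided test, over genes that reached 1 FPKM in 3 or more of the 6 samples compared (3 of 12 for the interaction). p-values were Benjamini-Hochberg adjusted over all genes tested. A gene was called at an adjusted p under 0.05; the paper's methods also ask for a log2 difference beyond 1, which was counted apart. Tables were read with Python 3.11.15 and pandas 2.3.3. Depth is given as reads calculated back; the floor of 3 reads covers counting error only, since reads carried no molecular identifiers.

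The members and lists were chosen with earlier results of these data known. All members were named by role, and of each further list the 3 genes with the largest difference among those that passed in a line; ATF4, DDIT3, EEF1E1 and, in Huh7, EIF2AK4 were named beside them, after their values were seen, for their link to members. In simulated data for Huh7 (12787 genes, 200 changed), 100% of changes of 4-fold and 80.8% of changes of 2-fold were recovered, with 12 other genes called. For HepG2 (11556 genes) these were 99%, 82.0% and 18. Simulated reads were drawn independently, with one dispersion for all genes and no GC trend between libraries. The real libraries differ along GC content, so these figures do not give the performance on them. Alternatives were another pseudocount (0.1), no filter, 2 scalings, no variance trend, one fit of all 12 samples, a block for the replicate number, removal of each library's GC trend (lowess, span 0.3), limma-voom on reads calculated back, and leaving out each sample. NONCODE genes were left out.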

Additional observations from a re-analysis of the deposited data

Results flagged for a closer look

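For 19 of 36 members tested, against 56.3% of all genes, the change from parental to resistant cells differed between Huh7 and HepG2 by the interaction test (limma, adjusted p under 0.05). On the log2 scale, Huh7 minus HepG2, the difference was 2.25 for YARS, 1.75 for MARS, 1.61 for VARS, 1.58 for SARS and 1.58 for MARS2. It was 1.45 for AIMP2, 1.30 for KARS, 1.26 for AARS and 1.12 for FARSA. HARS2 (0.98), GARS (0.85), LARS2 (0.82), QARS (0.70), IARS (0.66), CARS (0.63), AARS2 (0.55), FARSB (0.51) and EARS2 (0.48) differed by less than 1. EPRS was the member with a more negative change in Huh7 (-1.02). YARS, MARS and SARS passed as higher in Huh7 and as lower in HepG2, whereas GARS and IARS did not pass in Huh7.

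The calls of YARS, MARS, VARS, SARS, MARS2, AIMP2, KARS, AARS, FARSA, HARS2, GARS, LARS2, IARS, CARS and FARSB passed in every alternative run. EPRS did not pass with the GC trend removed (adjusted p = 0.103, limma). QARS, AARS2 and EARS2 failed there too and without single libraries of either line, with largest adjusted p of 0.0636, 0.244 and 0.318 over all alternatives. AARS2 also failed with a pseudocount of 0.1, and AARS2 and EARS2 failed without a filter and with limma-voom. Among the fits that leave out a library, QARS was lost without Huh7 resistant replicate 1, Huh7 parental replicate 3, HepG2 resistant replicate 1 or HepG2 parental replicate 2. AARS2 was kept only without Huh7 resistant replicate 2, Huh7 parental replicate 1, HepG2 resistant replicate 2 or HepG2 parental replicate 1 or 3, and EARS2 only without Huh7 parental replicate 1, HepG2 resistant replicate 2 or HepG2 parental replicate 1.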

How the results depend on the processing

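Of 25 Huh7 calls, 17 passed in every alternative, of 6 HepG2 calls 2 (YARS, SARS), of 19 interaction calls 15 and of 22 parental calls 19. With the GC trend removed, 13 cytosolic genes passed as higher and 4 as lower in Huh7, and 8 mitochondrial genes as higher and 3 as lower. In HepG2, 1 cytosolic gene then passed as higher and 12 as lower, and 2 mitochondrial genes as higher and 1 as lower. Calls over all 11762 genes rose there too, to 1897 higher and 2150 lower from 1366 and 991. The interaction passed for 9 mitochondrial genes, and over all genes for 3918 with a more positive and 3715 with a more negative change in Huh7. Among the genes called before, signs then turned for CARS (-0.01), RARS (0.26), AARS2 (-0.04), FARS2 (-0.03) and AIMP1 (0.20) in Huh7 and for RARS (-0.16) between parental lines. In HepG2, the fit of all 12 samples gave 1 cytosolic gene higher and 9 lower, and 2 mitochondrial genes higher and 1 lower. Over all genes, that fit gave 2380 higher and 1508 lower. With limma-voom 2 mitochondrial genes passed as higher, where 1844 of all genes did and 1136 passed as lower. Median-ratio and upper-quartile scaling gave 1 mitochondrial gene lower each. Without a filter 3 mitochondrial interactions passed. Why these counts moved was not tested.

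Leaving out one replicate gave 9 to 11 cytosolic genes higher and 4 to 6 lower in Huh7, 6 to 7 mitochondrial genes higher and 0 to 1 lower, and in HepG2 2 to 6 cytosolic genes lower and 0 to 1 mitochondrial genes higher. It gave 12 to 15 cytosolic and 3 to 5 mitochondrial interactions, and 11 to 14 cytosolic and 7 to 8 mitochondrial differences between parental lines. The count of 2 came without HepG2 resistant replicate 3. Mitochondrial interactions numbered 3 without that sample, Huh7 resistant replicate 1 or 3, or Huh7 parental replicate 2 or 3. FARSA did not pass between parental lines without Huh7 parental replicate 2 or 3 or HepG2 parental replicate 2, and LARS2 did not without any Huh7 parental replicate or HepG2 parental replicate 2 or 3. Where 2 samples are left in a group, the spread is shared with the other group.

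Samples with the same replicate number did not deviate together throughout (correlations -0.23 to 0.09 in Huh7, -0.02 to 0.44 in HepG2 and -0.19 to 0.20 between parental lines), so the numbers are not taken as pairs. With the replicate block, 8 cytosolic genes passed as lower and 1 mitochondrial gene as higher in HepG2, 11 and 7 passed as higher in Huh7, and 14 and 6 interactions passed. Over all genes in HepG2, 2111 then passed as higher and 1307 as lower, in place of 1366 and 991. Between the parental lines 11 cytosolic and 7 mitochondrial genes passed, in place of 13 and 8, and FARSA, RARS and LARS2 lost their call.

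PARS2, at no more than 3 reads a sample, and SARS2 lie too low for a statement on change.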
